A study of Mus musculus with 9 samples.

Results

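Cells of an epithelium hold to each other through cadherins, calcium-dependent proteins that cross the membrane and bind a like protein on the next cell. In adherens junctions the classical cadherins E-cadherin (Cdh1) and N-cadherin (Cdh2) are tied to actin through catenins. In desmosomes the desmocollins and desmogleins are tied to intermediate filaments through a plaque of plakoglobin (Jup), plakophilins and desmoplakin. Endocrine cells of the islet carry E-cadherin and N-cadherin as well as the immunoglobulin-type adhesion molecule NCAM (Ncam1), which is used as a neuroendocrine marker. The genes described here are 10 of the 54347 in the deposited table. They comprise the desmosomal cadherins Dsc2, Dsc3 and Dsg2, the plaque genes Dsp, Pkp2 and Jup, the classical cadherins Cdh1 and Cdh2, and the adhesion molecules Epcam and Ncam1. They were chosen by name as adhesion genes, except that Dsc3 was picked because it had no count in any tumor. Its levels in tumors and islets are therefore a description, and no test of that difference is given. All 10 genes passed the filter on low counts, which Dsc3 did only through the 3 islet libraries.

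RNA was sequenced from 6 tumors of INS-p25OE mice and from 3 samples of normal beta islets of C57BL/6 mice. INS-p25OE mice carried both the Ins2-rtTA and the tetOp-p25GFP transgene, so that doxycycline switched on p25, the activator of the kinase Cdk5, in cells that use the insulin promoter. Doxycycline was given in the drinking water at 1 mg/L (the dose in the methods and the series' design text, while other passages of the study give 1 g/L) from weaning at 3 to 4 weeks of age, and a low level of the transgene was also present without it. M1, M2 and M3 are the functional tumors (their labels add a word for insulin) and M4, M5 and M6 are the non-functional tumors. M2 came from a female and the other 8 libraries from males. Controls in the study were littermates without the transgenes. All mice had the C57BL/6 background. The age at collection, and whether an islet sample held islets of several mice, are not given in the sources used here.

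Between 36468280 and 63637175 reads were assigned to genes in each library. Cdk5r1, the gene for p35 from which p25 derives, stood at 149 to 401 CPM in the 6 tumors (CPM, a gene's share of the counts of a library after TMM scaling between libraries), at 18.4 and 12.5 CPM in NI2 and NI3, and at 280 CPM in NI1. The library labelled NI1 thus lay within the range of the tumors for the gene that checks the labels. Across the 15532 genes tested, log2(CPM + 1) of NI1 correlated with M6 at r = 0.988 and with NI2 and NI3 at r = 0.932 and r = 0.920, while NI2 and NI3 correlated at r = 0.9752. These correlations are across genes, which are not independent. Mitochondrial genes held 32.1% of all counts in M4 and 1.76% to 8.41% elsewhere. Tests of the members against islets are given with and without NI1. The 10 summed markers of beta cells lay between 18883 and 117230 CPM in tumors and between 122391 and 365735 CPM in islets. Most of each sum came from the hormone genes Ins1, Ins2 and Iapp, and the other markers did not all follow it. G6pc2 had 462 to 1395 CPM in tumors and 805 to 3809 CPM in islets. Pdx1 had 140 to 239 and 133 to 150 CPM, and Nkx6-1 300 to 1290 and 630 to 689 CPM. RNA came from whole samples, so fewer cells of a type and less RNA per cell cannot be told apart. Islets and tumors are different starting materials, so an effect of their preparation cannot be told apart from the difference between tumors and islets.

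Of the 9 genes tested, 0 passed an adjusted p of 0.05 between tumors and islets (edgeR's quasi-likelihood test, adjusted by Benjamini-Hochberg over all genes tested). That call was made for 0.258% of all tested genes, all of them lower in tumors. Before adjustment 3 members had a p below 0.05 (Dsp and Pkp2 lower and Ncam1 higher by the mean of tumors), against a background of 19.8%, or 10.7% higher and 9.14% lower. Cdh1, Cdh2, Epcam, Jup, Dsg2 and Dsc2 had log2 differences between -0.40 and 0.34. Without NI1 the count of called members was again 0 of 9, while 8.51% of all tested genes were then called, 5.34% higher and 3.17% lower. The same 3 members were below 0.05 before adjustment, against 26.5% of all tested genes.

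**Figure D1:**
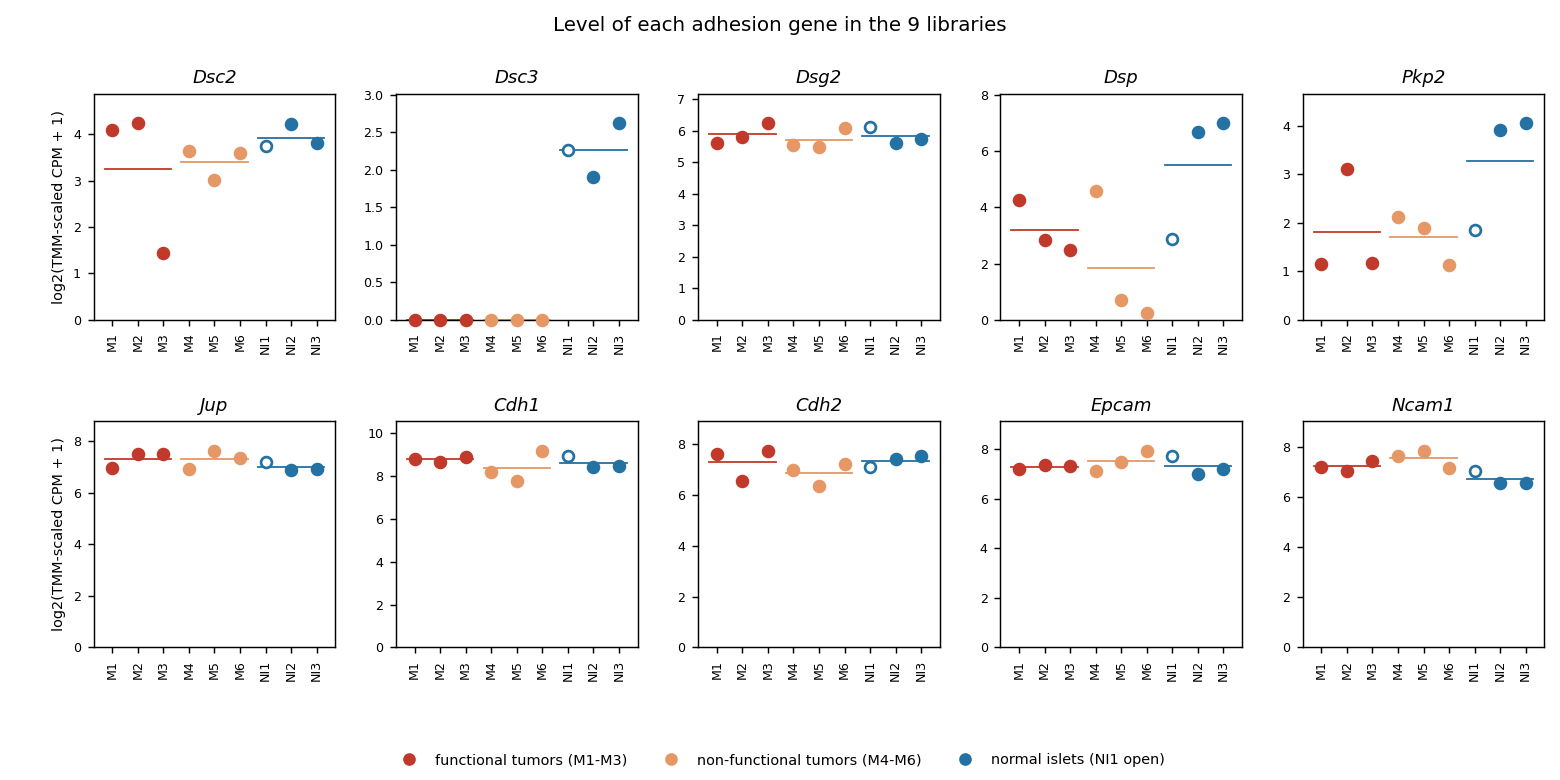
Level of each of the 10 genes in each library, as log2(TMM-scaled CPM + 1), with libraries along the horizontal axis, a vertical scale of its own for each gene starting at 0, and a line at each group's mean of these values. Dsc3 is at 0 in the 6 tumors and above 0 in all 3 islet libraries, whereas for Dsp and Pkp2 the open circle (NI1) lies among the tumors and NI2 and NI3 lie above every tumor.

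The desmocollin Dsc3 (ENSMUSG00000059898, chromosome 18 of GRCm38, 19960930 to 20002351) encodes one of the desmosomal cadherins, known best from stratified epithelia such as the skin. It had 222, 112 and 208 counts in NI1, NI2 and NI3, or 3.81, 2.73 and 5.15 CPM, a mean of 3.90 ± 1.21 CPM (SD, n = 3). In all 6 tumors its count was 0. A detection floor of 3 counts stood for 0.0425 to 0.119 CPM in a tumor, so the mean of the islets was at least 32.8-fold above the highest floor per library. In the table, 38 genes had no count in any tumor and a count in each islet library, and Dsc3 was the only one of them that passed the filter. By the lowest of the 3 islet counts it ranked first among the 38, and by their sum it ranked 3, after Glycam1 and Gm12892. The member nearest to this limit was Dsp, whose lowest count in a tumor was 10. For each of the other 9 members NI1 lay nearer to M6 than to the mean of NI2 and NI3, on log2(CPM + 1). That NI1 lay with the islets for Dsc3 was largely fixed by its choice and by the filter.

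Markers of other cells that islet samples could hold were read beside Dsc3. Of 8 stratified epithelial markers, 2 were tested and 0 differed, and their summed level was 6.65 to 17.5 CPM in tumors and 6.29 to 9.53 CPM in islets. The defining keratin Krt5 had no count in any of the 9 libraries, and Trp63, the factor of basal epithelial cells, had 5 and 7 counts in NI1 and NI3 and 0 in NI2. The 10 acinar markers summed to 21.8 to 281 CPM in tumors and 395 to 6511 CPM in islets. Their sum was 12.4 times as high in NI3 as in NI2, and Dsc3 1.89 times as high. The 8 lymphoid markers, all tested, summed to 44.9 to 526 CPM in tumors, 1603 and 1071 CPM in NI2 and NI3, and 224 CPM in NI1, so that the groups overlapped only through NI1. Of these 1 (Ms4a1, a B cell marker) was called lower in tumors and 2 (with Cd79b) without NI1, beside 0.258% and 3.17% of all tested genes. Before adjustment 5 had a p below 0.05 with all libraries, all lower, beside 9.14% of all tested genes. Ighm held most of the lymphoid sums in NI2 and NI3, with 1471 and 936 CPM. Cd79a went another way, with 92.4 CPM in NI1 and 44.9 and 48.9 CPM in NI2 and NI3. The 15 genes of the dissociation response summed to 279 to 465 CPM in tumors and 974 to 3422 CPM in islets. Of these 10 were called lower in tumors and 12 without NI1, where 0.258% and 3.17% of all tested genes were. What part these cells and this response have in the level of Dsc3 was not tested.

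Dsc2, the desmocollin of simple epithelia (ENSMUSG00000024331, chromosome 18, 20030633 to 20059554), was present in every library. Its levels were 16.2, 17.9 and 1.69 CPM across M1 to M3, and 11.5, 7.03 and 11.05 CPM across M4 to M6. In NI1, NI2 and NI3 they were 12.4, 17.6 and 13.1 CPM. M3 stood far below the other libraries with 93 counts, and apart from it the groups overlapped. Tumors differed from islets by -0.40 on the log2 scale (95% interval -1.61 to 0.81, adjusted p = 0.716). Of all desmocollin counts (Dsc1, Dsc2 and Dsc3), Dsc3 made up 23.5% in NI1 (95% Wilson interval 20.9% to 26.3%), 13.4% in NI2 (11.3% to 15.9%) and 28.2% in NI3 (25.1% to 31.5%). The intervals of NI2 and NI3 did not overlap. In the tumors it made up 0 of 93 to 1267 counts, where a limit of 3 counts stands for a share of 3.23% in M3 and 0.237% in M2. The tumor counts of 0 are the reason for the choice of Dsc3. This limit therefore describes depth and is no test of the share. The islet intervals and the tumor limit cover counting error only.

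The desmoglein Dsg2 (ENSMUSG00000044393, chromosome 18, 20558074 to 20604521), partner of Dsc2 in simple epithelia, had 47.4, 54.6 and 74.4 CPM in M1, M2 and M3. M4 to M6 followed with 46.1, 43.7 and 67.0 CPM, and NI1 to NI3 with 68.8, 47.3 and 52.1 CPM. High and low values were found in all 3 groups. On the log2 scale tumors differed from islets by -0.01, with an interval from -0.50 to 0.47 (adjusted p = 0.979). Exons of Dsg2 share 330 bases with Gm16090 on the opposite strand, a gene with 22 to 142 counts against at least 1162 for Dsg2, and whether the counting used strand is not given in the sources used here.

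Desmoplakin, the plaque protein that binds the intermediate filaments, is encoded by Dsp (ENSMUSG00000054889, chromosome 13, 38151294 to 38198577). Its levels in the functional tumors M1, M2 and M3 were 18.2, 6.17 and 4.53 CPM. In the non-functional tumors M4, M5 and M6 they were 22.9, 0.614 and 0.176 CPM, the last from 10 counts. NI2 and NI3 had 102 and 127 CPM, above every tumor, but NI1 had 6.38 CPM and lay among them. The log2 difference of tumors from islets was -3.17 (standard error 1.19, 95% interval -5.80 to -0.54, adjusted p = 0.196). Without NI1 it was -3.72 (adjusted p = 0.0793), the groups no longer overlapped, and among the alternatives its adjusted p spanned 0.0496 to 0.6253, the highest without NI3. The lowest came with NI1 and M6 both left out, the sole setting in which a member passed. Among tumors Dsp spanned a 130-fold range, and 0.895% of all tested genes had a larger SD of log2(CPM + 1) over the 6 tumors.

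Pkp2, a plakophilin that links the desmosomal cadherins to desmoplakin (ENSMUSG00000041957, chromosome 16, 16213318 to 16272712), was low throughout. The functional tumors had 1.21, 7.56 and 1.24 CPM and the non-functional tumors 3.33, 2.70 and 1.196 CPM, or 60 to 534 counts. NI2 and NI3 stood at 14.1 and 15.6 CPM and NI1 at 2.61 CPM, within the tumors. M2 was the highest tumor, between the other tumors and NI2. The log2 difference of Pkp2 between tumors and islets was -1.90 (standard error 0.70, 95% interval -3.44 to -0.36, adjusted p = 0.190). Without NI1 it was -2.37 (adjusted p = 0.0583, with a range over all alternatives from 0.0583 to 0.630). Of the 9 tested members, 3 did not overlap between tumors and islets once NI1 was left out (Dsp, Pkp2 and Ncam1), against 32.9% of all tested genes (16.6% higher and 16.3% lower).

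The acinar markers did not overlap between tumors and islets either. Of the 9 acinar markers tested, 0 were called with all libraries and 1 (Cela1, lower) without NI1, where 3.17% of all tested genes were called lower. Before adjustment all 9 were lower at a p below 0.05 in both fits, beside 9.14% and 11.5% of all tested genes. The acinar sum was 12.4 times as high in NI3 as in NI2, Dsp 1.25 times and Pkp2 1.11 times. The 10 ductal markers, 8 of them tested with 0 called, summed to 363 to 826 CPM in tumors and 468 to 578 CPM in islets, so the groups overlapped. The endothelial and mesothelial lists overlapped as well, with 422 to 1435 CPM in tumors and 1248 to 1381 CPM in islets for the 8 endothelial markers. The 8 mesothelial markers ran from 0.317 CPM in M6 to 342 CPM in M2, and from 1.75 to 26.2 CPM in islets. Msln alone had 338 CPM in M2. Upk3b, Upk1b, Lrrn4, Wt1, Muc16 and Gpm6a were higher in M3 than in M2, and Nkain4 was not. Of the endothelial markers 8 were tested and of the mesothelial 3, with 0 called. The lymphoid and dissociation sums given beside Dsc3 were also higher in NI2 and NI3 than in NI1, as Dsp and Pkp2 were, and what part any of these lists has in Dsp and Pkp2 was not tested.

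Plakoglobin, which serves both desmosomes and adherens junctions, is encoded by Jup (ENSMUSG00000001552, chromosome 11, 100368958 to 100397763). From M1 to M3 it had 124, 178 and 180 CPM, and from M4 to M6 118, 196 and 163 CPM. NI1, NI2 and NI3 had 144, 115 and 118 CPM. The 4 highest libraries were tumors, while M1 and M4 lay near NI2 and NI3. For Jup tumors differed from islets by 0.34 on the log2 scale, with an interval from -0.11 to 0.80 (adjusted p = 0.368).

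**Figure D2:**
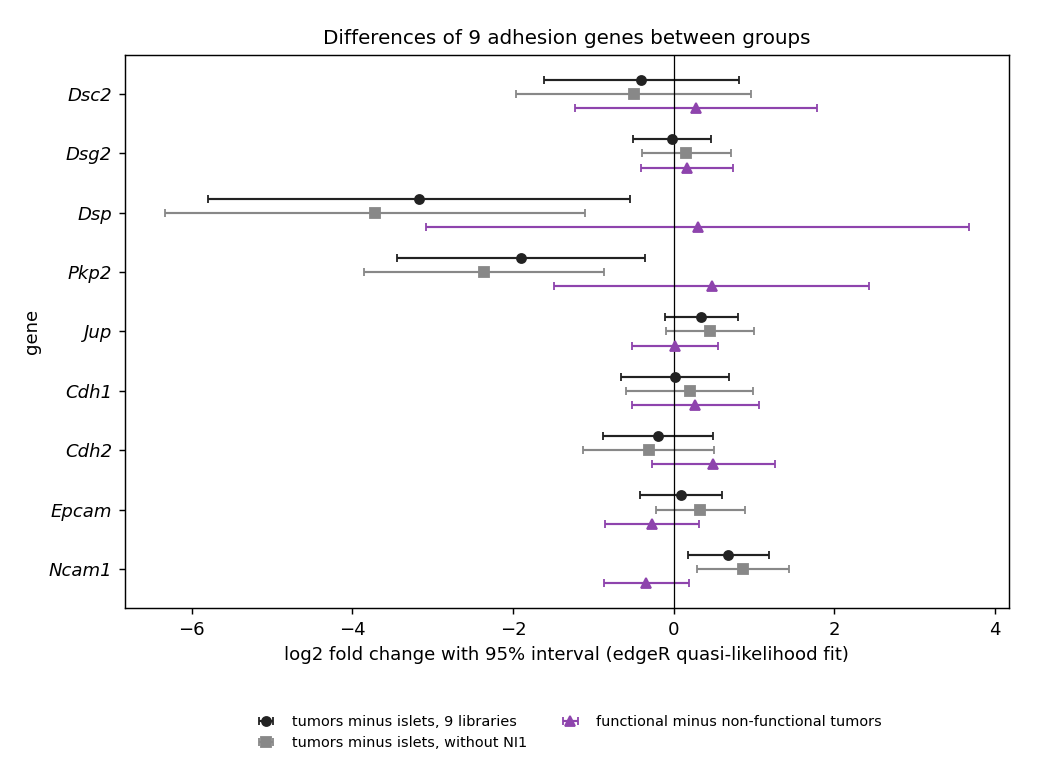
Log2 fold change (horizontal axis) of the 9 tested genes with its 95% interval, for tumors minus islets with all 9 libraries (black circles), the same without NI1 (grey squares), and functional minus non-functional tumors (purple triangles). The intervals of Dsp, Pkp2 and Ncam1 in both tumor and islet fits leave out 0 before adjustment, and that of Dsp between tumor types is the widest, from -3.08 to 3.67.

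Cdh1, the gene for E-cadherin (ENSMUSG00000000303, chromosome 8, 106603351 to 106670246), had the highest mean per kilobase of exon among the members in both groups. Its levels were 442, 399 and 473 CPM in M1, M2 and M3. M4, M5 and M6 had 293, 219 and 577 CPM, the lowest and the highest of all libraries among them. NI1, NI2 and NI3 had 489, 338 and 359 CPM, inside the range of the tumors. Tumors differed from islets by 0.02 on the log2 scale (95% interval -0.65 to 0.69, adjusted p = 0.981).

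N-cadherin is encoded by Cdh2 (ENSMUSG00000024304, chromosome 18, 16588877 to 16809246). The functional tumors had 198, 93.5 and 214 CPM, the non-functional tumors 127, 80.5 and 151 CPM. The islet libraries NI1, NI2 and NI3, with 138, 171 and 186 CPM, lay within that range. Its log2 difference of tumors from islets was -0.19, with an interval from -0.88 to 0.49 (adjusted p = 0.760). With all 9 libraries the interval of neither classical cadherin reached a difference of 1 on the log2 scale, and the same holds for Dsg2, Jup and Epcam. Without NI1 that of Cdh2 went down to -1.12.

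Epcam, an adhesion molecule of simple epithelia (ENSMUSG00000045394, chromosome 17, 87635979 to 87651129), had 146, 163 and 158 CPM in M1, M2 and M3. It had 139, 179 and 243 CPM in M4, M5 and M6. NI1 stood at 210 CPM, next to M6, and NI2 and NI3 at 125 and 147 CPM. Between tumors and islets Epcam differed by 0.09 on the log2 scale, with an interval from -0.42 to 0.60 (adjusted p = 0.859). Without NI1 the log2 differences of the members so far without such a value were -0.50 for Dsc2, 0.16 for Dsg2, 0.45 for Jup, 0.20 for Cdh1, -0.31 for Cdh2 and 0.33 for Epcam. Their adjusted p was 0.267 for Jup and between 0.420 and 0.756 for the other 5, and Dsg2 was the one of these whose sign turned.

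Ncam1 (ENSMUSG00000039542, chromosome 9, 49502136 to 49798925) was the one tested member for which tumors and islets did not overlap with all 9 libraries, as for 7.67% of all tested genes (4.5% higher and 3.17% lower in tumors). The functional tumors had 149, 132 and 172 CPM, the non-functional tumors 199, 232 and 143 CPM. In NI2 and NI3 the level was 94.0 and 93.9 CPM, and in NI1 131 CPM, just under the lowest tumor. The log2 difference of tumors from islets was 0.68 (standard error 0.23, 95% interval 0.18 to 1.18, adjusted p = 0.168), with 6 of 6 tumors higher than each islet sample. Without NI1 it was 0.86 (adjusted p = 0.0679), with adjusted p between 0.0579 (DESeq2) and 0.594 (without NI3) among the alternatives. Schwann cells also carry NCAM. Their 8 markers, 4 of them tested with 0 called, summed to 22.5 to 46.0 CPM in tumors and 28.2 to 40.1 CPM in islets. The 8 macrophage markers were all higher in tumors at a p below 0.05 before adjustment in both fits, beside 10.7% and 15% of all tested genes. In all libraries 0 were called, and without NI1 3 (Adgre1, Cd68 and Mrc1), beside 5.34% of all tested genes called higher. The 8 markers summed to 465 to 1272 CPM in tumors and 189 to 433 CPM in islets, so that these groups did not overlap either. Their part in the level of Ncam1 was not tested.

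Levels of different genes were set against each other only after division by the length of the exons. In tumors Cdh1 had 87.5 ± 28.1 CPM per kilobase and Epcam 78.1 ± 17.2 (SD, n = 6). They were followed by Jup with 24.8 ± 4.94, Ncam1 with 19.7 ± 4.39 and Cdh2 with 17.9 ± 6.73. Dsg2 had 6.72 ± 1.52, Dsc2 2.06 ± 1.13, Dsp 0.908 ± 0.988 and Pkp2 0.536 ± 0.460, with Dsc3 last. In islets Dsp had 8.14 ± 6.60 CPM per kilobase (SD, n = 3) and Dsg2 6.79 ± 1.36, but their order differed between islet libraries. Dsp stood above Dsg2 in NI2 (10.6 and 5.72) and in NI3 (13.2 and 6.31), and below it in NI1 (0.660 and 8.32). In the tumor order, mean ± SD overlapped between Cdh1 and Epcam, between Jup and Ncam1, between Ncam1 and Cdh2, between Dsc2 and Dsp, and between Dsp and Pkp2. It did not overlap between Epcam and Jup, Cdh2 and Dsg2, or Dsg2 and Dsc2.

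The balance of a pair of these genes within a library does not depend on the scaling between libraries. Cdh1 was 2.21 to 4.26 times Cdh2 in tumors, 1.98 and 1.93 times in NI2 and NI3, and 3.55 times in NI1. The 6 tumors and NI1 thus lay above NI2 and NI3 in this ratio, with M2 and M6 highest. Dsc2 was 0.0227 times Dsg2 in M3 and 0.161 to 0.341 times in the other tumors, against 0.180 to 0.372 times in islets. Epcam was 0.331 to 0.817 times Cdh1 in tumors, where M5 was highest, and 0.370 to 0.430 times in islets. The ratio of Dsp to Jup, chosen after the values were seen, was 0.00108 to 0.194 in tumors, 0.0443 in NI1, and 0.886 and 1.08 in NI2 and NI3. Since CPM is not divided by length here, each ratio is to be compared between libraries only.

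**Figure D3:**
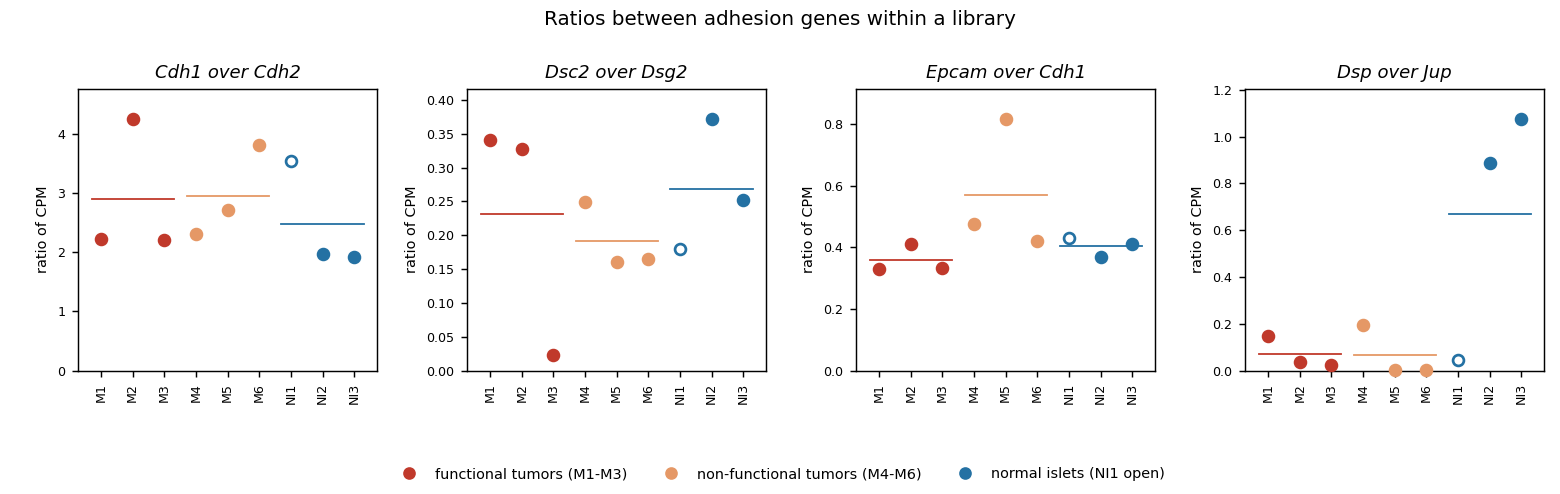
Ratio of the CPM of 2 genes within each of the 9 libraries (horizontal axis), on a linear vertical axis starting at 0, with a line at each group's mean. NI1 (open) lies beside M6 for Cdh1 over Cdh2 at 3.55 and 3.82, and among the tumors for Dsp over Jup.

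Functional and non-functional tumors were compared for the same 9 genes, a contrast that the choice of Dsc3 did not use. The edgeR test called 0 of 9 members, and 0 of the 15532 tested genes, after adjustment. Before adjustment 0 members had a p below 0.05, where 10.3% of all tested genes did (4.71% higher and 5.58% lower in functional tumors). DESeq2 called 0 members too, beside 22 genes higher and 89 lower. The 3 tumors of a type overlapped with the 3 of the other type for each of the 9 genes, while 15% of all tested genes did not overlap (8.77% higher and 6.24% lower). The log2 difference of functional from non-functional tumors was 0.27 for Cdh1 (95% interval -0.52 to 1.06) and 0.50 for Cdh2 (-0.27 to 1.26). It was -0.27 for Epcam (-0.85 to 0.32) and -0.34 for Ncam1 (-0.87 to 0.19). For Jup it was 0.02 (-0.52 to 0.55) and for Dsg2 0.17 (-0.41 to 0.75). Dsc2, Pkp2 and Dsp had wider intervals, from -1.23 to 1.79, from -1.49 to 2.44 and from -3.08 to 3.67. With M4 left out the value for Dsp was 4.63. For these genes the spread lay inside the types. Dsc2 was 1.69 CPM in M3 beside 16.2 and 17.9 CPM in the other functional tumors, and Dsp was 22.9 CPM in M4 beside 0.614 and 0.176 CPM in the other non-functional tumors.

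The tumors were not ordered alike by these genes. The lowest tumor was M3 for Dsc2, M6 for Dsp and Pkp2, M5 for Dsg2, Cdh1 and Cdh2, M4 for Jup and Epcam, and M2 for Ncam1. The highest was M2 for Dsc2 and Pkp2, M4 for Dsp, M3 for Dsg2 and Cdh2, M5 for Jup and Ncam1, and M6 for Cdh1 and Epcam. The highest tumor had 1.65 to 1.76 times the level of the lowest for Jup, Dsg2, Epcam and Ncam1, and 2.63 and 2.66 times for Cdh1 and Cdh2. For Pkp2, Dsc2 and Dsp this ratio was 6.32, 10.6 and 130. The SD of log2(CPM + 1) over the tumors was 0.287 to 0.308 for the first 4 of these genes, against a median of 0.399 over all tested genes. It was 0.782 for Pkp2, 1.03 for Dsc2 and 1.79 for Dsp.

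Further genes of the junctions were taken from lists of names. Of 17 desmosome genes, 9 besides Dsc3 were tested, and 0 were called with all 9 libraries. Their median log2 difference of tumors from islets was -0.01, beside 0.03 over all tested genes. Without NI1, beside 5.34% and 3.17% of all tested genes called higher and lower, 0 were lower and 1 was higher. This was Evpl, which encodes the plaque protein envoplakin, with 24.1 to 50.0 CPM in tumors, 13.3 and 16.0 CPM in NI2 and NI3 and 36.3 CPM in NI1 (log2 difference 1.43, adjusted p = 0.0358 without NI1). The 7 genes of the list that were not tested (Dsc1, Dsg1a, Dsg1b, Dsg1c, Dsg3, Dsg4 and Pkp1), most of them desmosomal cadherins of stratified epithelia, had at most 6 counts in a tumor and at most 19 in an islet library. The 6 counts were of Pkp1 in M4, which had at most 4 in an islet library. Dsg1a had 10, 2 and 19 counts in NI1, NI2 and NI3 and at most 1 in a tumor. Dsg1b had 4, 10 and 0 counts there and 0 in the tumors.

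All 17 adherens junction genes were tested, with 0 called in all 9 libraries and a median log2 difference of -0.01. Without NI1, Nectin1, an immunoglobulin-type molecule of these junctions, was the 1 called gene of 17 (log2 difference 1.23, adjusted p = 0.0416), beside 5.34% of all tested genes called higher. Its tumors had 21.9 to 47.9 CPM, NI2 and NI3 14.8 and 16.8 CPM, and NI1 37.6 CPM. Ctnnb1, the gene for beta-catenin, had 450 to 654 CPM in tumors and 506 to 671 CPM in islets, with a log2 difference of -0.13 (adjusted p = 0.755). Cdh3, the gene for P-cadherin, was named after its values were seen. It had 30.4 CPM in M6 and 25.6 CPM in NI1, 0.604 to 7.89 CPM in the other tumors, and 0 and 8 counts in NI2 and NI3.

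Among 19 other classical and type II cadherins 8 were tested, with a median log2 difference of 0.94 and 0 called. Without NI1 only Cdh4, the gene for R-cadherin, was called (21.1 to 61.1 CPM in tumors, 14.4 and 12.9 CPM in NI2 and NI3, 32.6 CPM in NI1, log2 difference 1.71, adjusted p = 0.0288). Of 13 immunoglobulin-family adhesion genes, Ncam1 among them, 12 were tested, with a median of 0.97 and 0 called. Before adjustment, 7 of the 12 were below 0.05 with a higher and 1 with a lower level in tumors, beside 10.7% and 9.14% of all tested genes. Without NI1, 3 of the 12 were called, all with a higher level in tumors, beside 5.34% of all tested genes. Cadm1, a synaptic-type adhesion molecule, had 30.2 to 157 CPM in tumors, 6.61 and 10.7 CPM in NI2 and NI3 and 26.3 CPM in NI1 (log2 difference 3.69, adjusted p = 0.0112). Nrcam, a neuronal member of the family, had 9.89 to 46.4 CPM in tumors, 2.81 and 3.74 CPM in NI2 and NI3 and 8.33 CPM in NI1 (3.00, adjusted p = 0.0271). Mcam, carried by endothelial and smooth muscle cells, had 72.4 to 132 CPM in tumors, 38.2 and 41.9 CPM in NI2 and NI3 and 73.1 CPM in NI1 (1.39, adjusted p = 0.0140). For each of these called genes NI1 stood above NI2 and NI3.

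Of 25 tight and gap junction genes 18 were tested, and 0 were called with or without NI1, with medians of -0.01 and 0.05. Gjd2, the gap junction gene of beta cells, had 168 to 303 CPM in tumors and 222 to 280 CPM in islets. Of 18 genes linked to transitions between epithelial and mesenchymal states 14 were tested and 0 were called in either fit. The list held factors such as Snai1 and Zeb1, the mesenchymal genes Vim and Fn1, and epithelial factors such as Esrp1 and Ovol2. Over the 14 tested genes the median log2 difference was 0.78. This median pools genes of both states and gives no direction between them. Of the epithelial factors, Esrp1 differed by -0.42 and Ovol2 by 1.26. Before adjustment 5 of the 14 had a p below 0.05, all with a higher level in tumors, as 10.7% of all tested genes did. Fibroblast markers moved alongside, summing to 107 to 2148 CPM in tumors and 124 to 184 CPM in islets, with M6 at 107 CPM. Of the 8, 0 were called with all libraries and 1 (Mfap5, higher) without NI1, beside 5.34% of all tested genes called higher. Before adjustment 6 had a p below 0.05 with all libraries, all higher, beside 10.7% of all tested genes. What part stromal cells have in these values was not tested. Between functional and non-functional tumors 0 genes of these 6 lists were called.

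**Figure D4:**
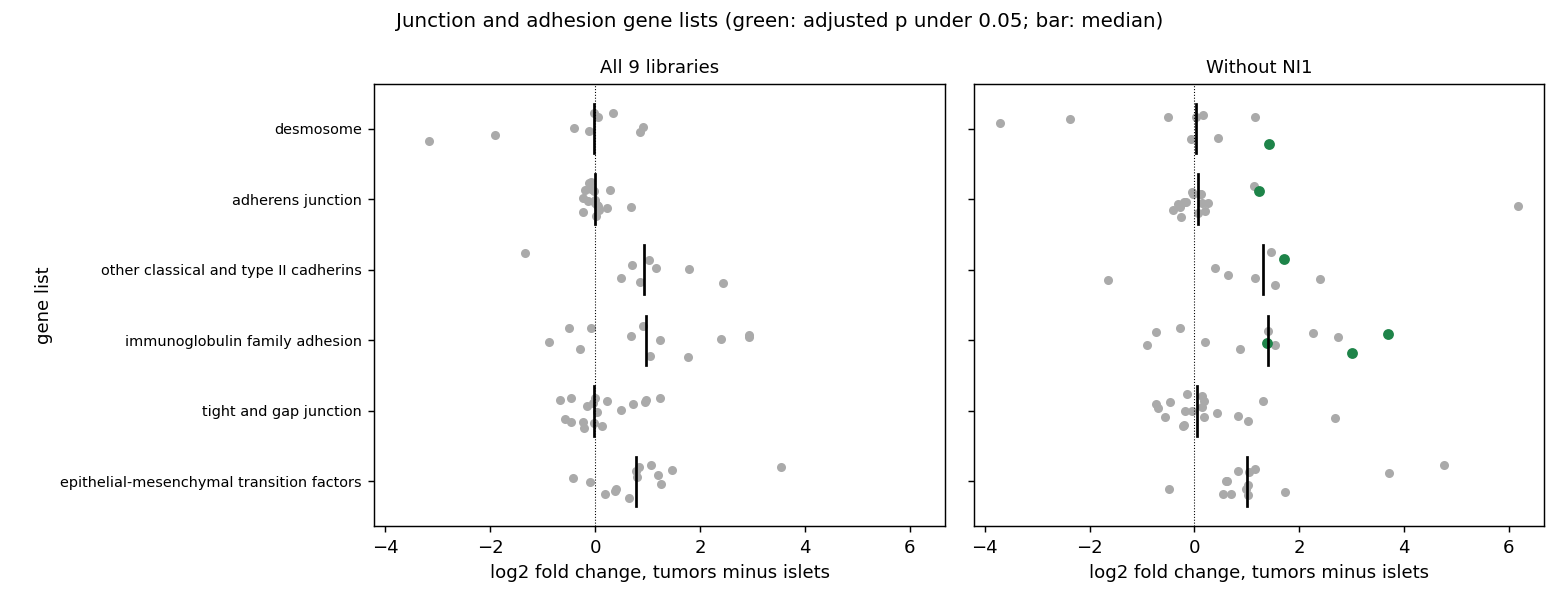
Log2 fold change of tumors minus islets (horizontal axis) for the tested genes of 6 junction and adhesion lists (rows), with all 9 libraries on the left and without NI1 on the right. Each point is a gene without Dsc3, green where the adjusted p is under 0.05, and a bar marks the list's median, which on the left is 0.97 for the immunoglobulin family and near 0 for desmosome, adherens, and tight and gap junction genes.

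Genes with the profile most like a member were sought by Pearson's r of log2(CPM + 1) over the 9 libraries, among all tested genes. Since the libraries fall into groups, r describes this set of libraries and no more. Nearest to Dsc3 were Vip, the gene of a neuropeptide (r = 0.996), Tnfrsf13c, the BAFF receptor of B cells (r = 0.969), and Chst3, a chondroitin sulfotransferase (r = 0.961). Vip had 339, 210 and 421 counts in NI1, NI2 and NI3 and at most 6 in a tumor. Because Dsc3 was picked for having no count in any tumor, the genes nearest to it had to be low in tumors. Their r thus largely restates that choice. Nearest to Cdh1 were Zfp516 (r = 0.969), Map7, which encodes a microtubule-associated protein (r = 0.966), and Taf5l (r = 0.964). Like Cdh1 they were lowest in M4 and M5 and highest in M6. Nearest to Ncam1 were Tbcel (r = 0.988), Mdfi (r = 0.977) and Ccdc34 (r = 0.976), all of them highest in M5 and lowest in NI2 and NI3.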

How the data were processed

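The authors trimmed single-end reads with Trimmomatic 0.38 and quantified transcripts with salmon 1.4.0 against mm10, and their methods name DESeq2 for the tests. The deposited table, although named for TPM, holds whole-number estimated counts of each gene, not scaled between libraries, so no rounding was needed. Symbols, coordinates and exon lengths came from GENCODE for GRCm38, which matched 54094 of 54347 identifiers, and the other 253 held 0.0121% of the counts. A gene was tested where 3 or more of the 9 libraries reached 1 CPM. Counts were scaled by TMM and fitted with edgeR 4.0.16 in R 4.3.3 (quasi-likelihood test, two-sided), with tumors as a single group against islets and with 3 groups for functional against non-functional tumors. Intervals are 95% t intervals of the fit and are not adjusted. The fits were tried on simulated counts with the same dispersion for every gene and no library like NI1. That trial does not show how they behave with such a library. DESeq2 1.42.0, limma 3.58.1, other filters and scalings, each library left out in turn and a replicate block were alternatives, with NI1 and M6 both left out added after the data were seen. Leaving out libraries kept the tested genes fixed. The plan named limma for the case of TPM and edgeR for counts. The members and gene lists were chosen with earlier results of these data known. Named genes are the members, Cdk5r1, the 3 genes most alike to Dsc3, Cdh1 and Ncam1, defining markers, and from each list up to 3 genes called in all 9 libraries or, where none was, up to 2 called without NI1. Mcam, Ctnnb1, Gjd2 and Cdh3 were named outside this rule, after their values were seen. Samples are called biological replicates in the methods. From the lymphoid list 1 marker is not reported here, and its sums and counts leave it out.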

Additional observations from a re-analysis of the deposited data

Results flagged for a closer look

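Of 9 members with counts in tumors, 1 had a tumor set apart from the other 5 by a gap that was large for the group's range (Dixon's test at 95%), where chance gives about 0.45 such groups. This was Pkp2 in M2, at 7.56 CPM, against 1.196 to 3.33 CPM in the other tumors. No explanation was tested.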

How the results depend on the processing

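Tumors against islets gave 0 genes higher and 40 lower, and these counts moved with the settings. Genes higher numbered 6 with no filter on low counts, 2 with edgeR's filterByExpr, 2 with library totals in place of TMM, 2 with limma-trend, 4 in the 3-group fit, 764 with DESeq2 and 893 with NI1 and M6 both left out. Genes lower numbered 98 with no filter, 64 with library totals, 94 in the 3-group fit, 488 with DESeq2 and 558 with NI1 and M6 left out. Leaving out 1 library gave 0 to 829 higher and 7 to 492 lower, with the highest of both without NI1 and the fewest lower without NI3. Without M6 there were 81 higher and 136 lower. For M1 to M3 against NI1 to NI3 the replicate block gave 10 higher and 25 lower, against 41 and 89 with no block. The numbers did not pair the libraries, since the deviations of same-numbered libraries correlated at -0.05, 0.03 and -0.16. The block called 0 members. Members called stayed at 0 of 9 except for 1 with NI1 and M6 left out (Dsp, log2 difference -3.46). Between tumor types, where edgeR called 0 genes, 1 was higher with no filter, 1 with limma-trend and 0 to 1 with 1 library left out (1 without M2), while DESeq2 called 22 higher and 89 lower. Of 180 log2 differences of members between tumors and islets, 21 turned sign, 158 kept sign and side of the threshold, and 1 passed it. Dsg2 turned to 0.012 with no filter, 0.20 with library totals, 0.10 with NI1 and M6 out, and for M1 to M3 to 0.056 with and 0.064 without the block. Cdh1 turned to -0.032 with limma-trend, Cdh2 to 0.085 with library totals and 0.032 for M1 to M3 without the block, and Epcam to -0.019 with and -0.055 without it. With 1 library left out Dsg2 ran from -0.12 to 0.16, Cdh1 from -0.12 to 0.20 and Epcam from -0.061 to 0.33. Of 162 differences between tumor types 18 turned sign. Dsc2 turned to -0.28 with limma-trend, Dsp to -0.28 with NI1 and M6 out, Jup to -0.0018 with RLE scaling, -0.0019 with DESeq2 and -0.0064 in the tumors alone, and with library totals Epcam to 0.0014 and Ncam1 to 0.012. With 1 library left out Dsc2 ran from -0.14 to 0.79, Dsg2 from -0.036 to 0.39, Dsp from -0.55 to 4.63 (without M4), Pkp2 from -0.97 to 0.87, Jup from -0.16 to 0.17 and Cdh1 from -0.0025 to 0.77. Library totals moved the median of all tested genes to 0.25 between tumors and islets and 0.32 between tumor types, from 0.03 and 0.01. Beyond what fewer libraries or other tested genes imply, the cause was not tested. Depth limits Dsp in M5 and M6, at 25 and 10 counts.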
